A study of Mus musculus with 11 samples.

Results

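The genes described here encode the proteins of the cytosolic ribosome in mouse embryos at E8.5. They were taken by symbol from the platform annotation: Rps or Rpl followed by a number, together with Rpsa, Rplp0, Rplp1 and Rplp2, without the -ps pseudogenes and the Rps6k kinases. Only probes with a single gene symbol were used, and the probe with the highest mean log2 ratio stood for each gene. The rule gave 61 genes of the 19938 measured, 23 of the small subunit and 38 of the large subunit. RefSeq lists 60 of the 61 as protein coding and Rps4l as a transcribed pseudogene. A further 17 coding genes of the family lay only on probes that also carried another symbol, among them Rpl3, Rpl11, Rpl13a, Rpl22l1, Rpl39, Rps24 and Rps26.

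Cells of 3 tissues of CD1 mouse embryos were cut out by laser capture from frozen sections, and the RNA was amplified and read on Affymetrix mouse ST arrays. Neuroepithelium, the neural plate tissue, was read on 3 arrays, neural crest, the migratory cells that leave its border, on 5, and paraxial mesoderm, the tissue of the somites, on 3. The labels name no genotype, allele or treatment, so all groups share the CD1 strain and the age. They tie no array to an embryo or to a number of cells, while the series speaks of single cells. The p-values below thus set differences of group means against the array-to-array spread in this set, estimated over all 3 tissues together. They would be too small if arrays of a tissue came from the same embryo. In such captures fewer cells of a type and less RNA per cell cannot be told apart.

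Each deposited value is the ratio of a probe's signal on an array to a reference value of the same probe. A gene that is silent everywhere and a gene that is equally active everywhere both sit near 1, so these values hold no level of expression and no gene is ranked above another by level. Of the 61 genes, 58 stood at exactly 1 (within 1e-05) on one array. Those arrays were always among the same 8, because neuroepithelium array 2 and neural crest arrays 3 and 5 held no ribosomal protein gene at exactly 1 and at most 4 genes of any kind, against 1542 to 3405 on the others. The labels were checked against tissue markers. Snai1, a transcription factor of the neural crest, lay between 41.2 and 82.1 on all 5 crest arrays and near 1 elsewhere. The other 7 crest markers were less regular: Tfap2a and Ets1 stayed within 2-fold everywhere, and Sox9, Sox10, Foxd3, Tfap2b and Twist1 left that range on only some crest arrays. Tfap2b also read 22.6 on neuroepithelium array 3, and Twist1 read 5.92 on neuroepithelium array 2. Epcam, an epithelial adhesion protein, lay between 37.4 and 41.9 on all 3 neuroepithelium arrays. Keratins listed as surface ectoderm markers were high on them too, Krt8 from 33.9 to 35.2 and Krt18 from 72.4 to 91.6, and on array 2 the surface ectoderm genes Grhl3 and Wnt6 were also at least 4-fold high. Krt8 was likewise high on neural crest array 3 and paraxial mesoderm arrays 2 and 3, and Krt18 on paraxial mesoderm array 2. Trp63, also on the surface ectoderm list, stayed within 2-fold everywhere. On paraxial mesoderm array 3, Foxa2 at 7.64 and Nog at 9.63, markers of endoderm and notochord, were high. Shh at 1.20 and Sox17 at 0.965, of the same list, stayed near 1 there. Sox1, Sox3, Pax6, Cdh1 and Hes5 of the neuroepithelium stayed within 2-fold of their reference everywhere. Sox2 lay near 1 on the neuroepithelium arrays and reached 2.70 on paraxial mesoderm array 3. Epcam was thus the only one of the 7 neuroepithelium markers that was high on the neuroepithelium arrays. All 7 measured markers of paraxial mesoderm stayed within 2-fold everywhere, so the mesoderm label has no marker of its own in these ratios. All 6 measured markers of primitive red cells, led by Hbb-bh1 at a ratio of 269, were at least 4-fold high on paraxial mesoderm array 1 and on no other array. The part of such other cells in the values below was not tested. Of 5 measured genes listed as ubiquitous, Actb, Eef1a1, Tubb5 and Ppia stayed within 2-fold everywhere. Hprt ran from 0.291 to 45.3 and was both more than 4-fold high and below 0.4 on arrays of each tissue, so such swings were not limited to tissue markers.

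Ribosomal proteins coat the ribosomal RNA of the small and large subunits. They are made in the cytosol, imported into the nucleolus, assembled there with the help of biogenesis factors and exported as subunits. Each is normally present in 1 copy per ribosome, except the acidic proteins of the P stalk, and the genes are active in every cell that grows. In the mouse, lowered amounts of single ribosomal proteins are known to alter pigment, tail and skeletal patterning, which involve neural crest and somites. In humans, heterozygous loss of several of them causes Diamond-Blackfan anaemia. Most of their mRNAs begin with a run of pyrimidines at the 5′ end through which their translation is regulated.

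The promoter table of RefSeq (GRCm38.p6) held 49 of the 61 genes. A run of at least 6 C or T within 15 bases either side of the start was present in 26 of them (53.1%), against 32.4% of 15614 genes. The letters CGGAAG, read on either strand as CGGAAG or CTTCCG anywhere from 250 bases before to 50 bases after the start, were present in 33 (67.3%), against 24.7% of all promoters. The next 4 windows, each of 45 bases before and 15 from the annotated start, are from genes that stayed near their reference on all arrays and have separate known roles or are named in the comparisons below. Capitals mark CGGAAG on either strand, or a pyrimidine run in the last 30 bases. The windows lie at chr4:86857353-86857412 on the minus strand (Rps6), chr11:114668535-114668594 on the plus strand (Rpl38), chr7:141447606-141447665 on the plus strand (Rplp2) and chr17:33824548-33824607 on the minus strand (Rps28).
Rps6: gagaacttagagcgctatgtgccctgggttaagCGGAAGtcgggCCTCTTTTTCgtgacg
Rpl38: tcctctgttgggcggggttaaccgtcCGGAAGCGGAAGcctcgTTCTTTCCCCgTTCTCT
Rplp2: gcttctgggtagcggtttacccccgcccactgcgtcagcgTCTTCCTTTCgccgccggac
Rps28: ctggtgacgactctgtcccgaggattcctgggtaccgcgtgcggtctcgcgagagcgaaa
The other 4 are from genes that left their reference by at least 4-fold on some array. They lie at chr17:46782642-46782701 on the minus strand (Rpl7l1), chr9:120571472-120571531 on the plus strand (Rpl14), chr3:86142654-86142713 on the minus strand (Rps3a1) and chr11:68901521-68901580 on the plus strand (Rpl26).
Rpl7l1: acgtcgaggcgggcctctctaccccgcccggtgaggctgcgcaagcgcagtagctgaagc
Rpl14: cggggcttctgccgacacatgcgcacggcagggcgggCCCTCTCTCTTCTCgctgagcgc
Rps3a1: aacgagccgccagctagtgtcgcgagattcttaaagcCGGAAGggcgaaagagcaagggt
Rpl26: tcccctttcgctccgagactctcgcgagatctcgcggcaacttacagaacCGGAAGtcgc
Rpl14 carried the longest pyrimidine run of the 8 windows, 14 bases, and the windows of Rpl7l1 and Rps28 carried neither feature, although Rps28 held CGGAAG elsewhere in its promoter entry. Among genes with a promoter entry, the run was present in 21 of the 40 that stayed within 2-fold and in 5 of the 9 that did not, and CGGAAG in 27 and 6. These matches describe letters in a window and are not shown to be binding or translation signals here.

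Most ribosomal protein genes stayed near their reference across the 11 arrays, as did most genes of any kind. Of the 61, 49 (80.3%) stayed within 2-fold of their reference on every array, against 71.8% of all genes. The other 12 were Rpl7l1, Rpl14, Rps27l, Rpl22, Rps4l, Rpl34, Rps3a1, Rpl26, Rpl30, Rpl12, Rps29 and Rpl4. All of these but Rps4l and Rps29 had a single probe, whereas only 22 of the 61 genes did. For the 39 genes with several probes, the probe with the highest mean had been chosen. The share within 2-fold thus rested largely on genes with several probes. Across all genes 28.2% left their reference by at least 2-fold somewhere and 24.9% by at least 4-fold, as did 8 of the 61. Of the 12, 7 were off on a single array. The 49 near-constant genes ranged from 0.527 (Rpl8) to 1.93 (Rps2), and 97.6% of their 539 values were within 1.5-fold of the reference. Counted over all arrays, 42 of the 61 genes never reached 1.5-fold. Just inside the 2-fold limit were Rps2, with 1.93 on neural crest array 5, and Rpl8, with 0.527 on neural crest array 2. Just outside it was Rpl4, with 0.476 on neural crest array 3.

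**Figure D1:**
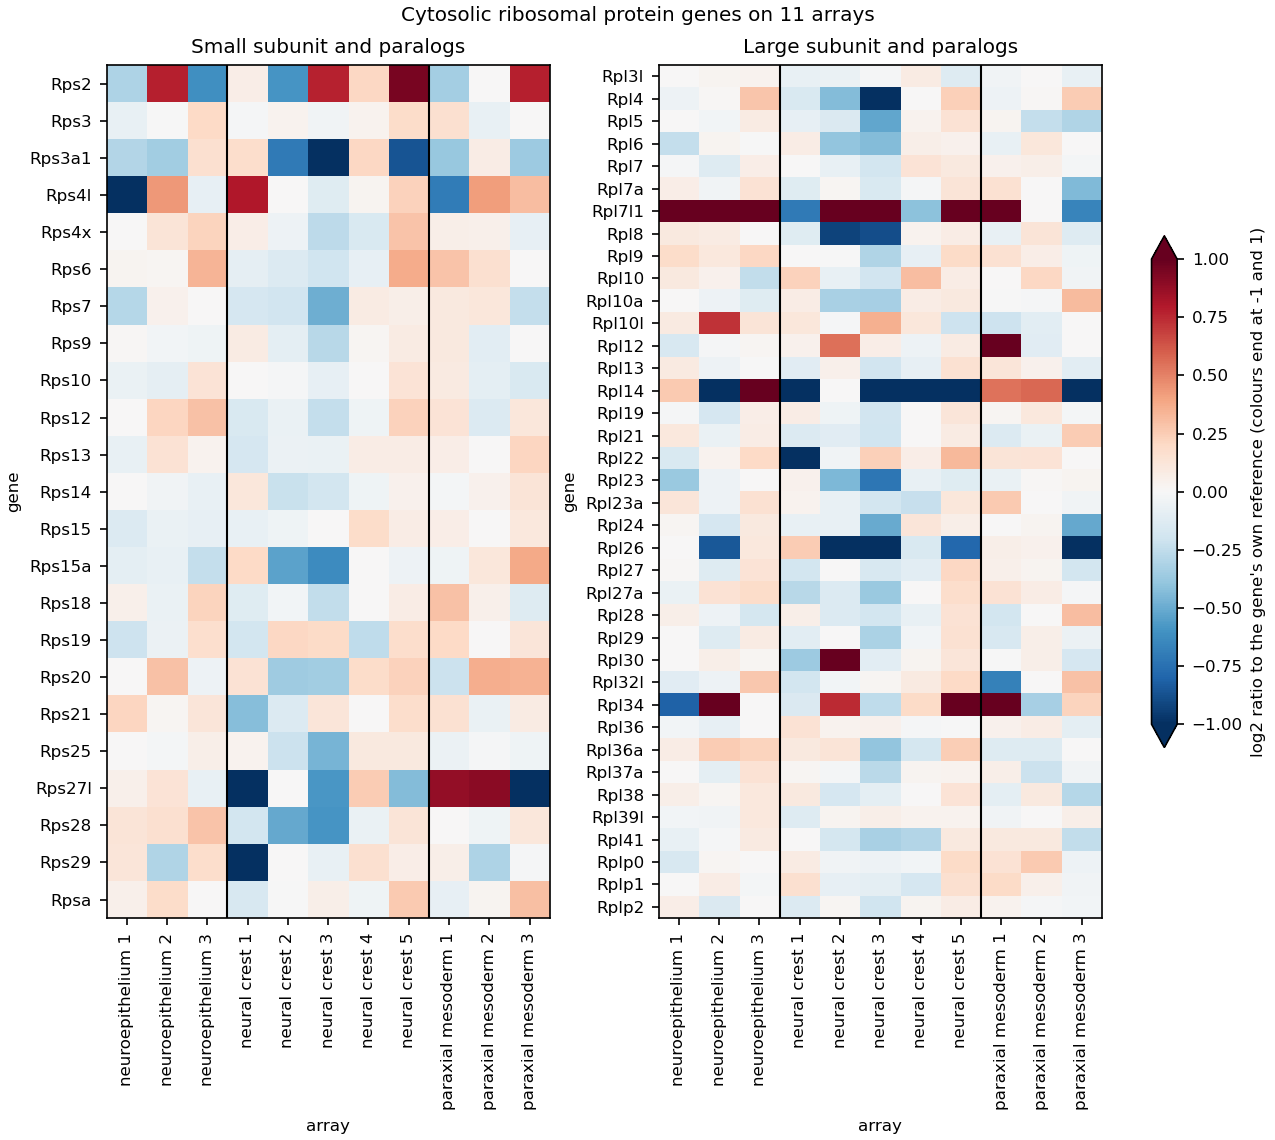
Log2 ratio to the reference of each ribosomal protein gene (rows) on each of the 11 arrays (columns, by tissue), in panels for the small and the large subunit. Colours end at -1 and 1, the 2-fold limits. Most rows stay pale on all arrays, and Rpl7l1 is at the upper end on 7 arrays.

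Other genes of protein synthesis varied more across the arrays. The median gene of the cytosolic family spanned 1.46-fold from its lowest to its highest array. This was slightly more than the median of 1.34-fold over all genes, so by this measure the family was not steadier than genes in general. The corresponding medians were 26.0-fold for 38 ribosome biogenesis genes, 28.1-fold for 61 translation factors and 63.0-fold for 77 mitochondrial ribosomal protein genes. Only 8 biogenesis genes (21.1%), 16 translation factors (26.2%) and 2 mitochondrial ribosomal protein genes (2.60%) stayed within 2-fold on all arrays. These differences between lists are descriptions without a test. No gene of these lists passed in any comparison between tissues.

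**Figure D2:**
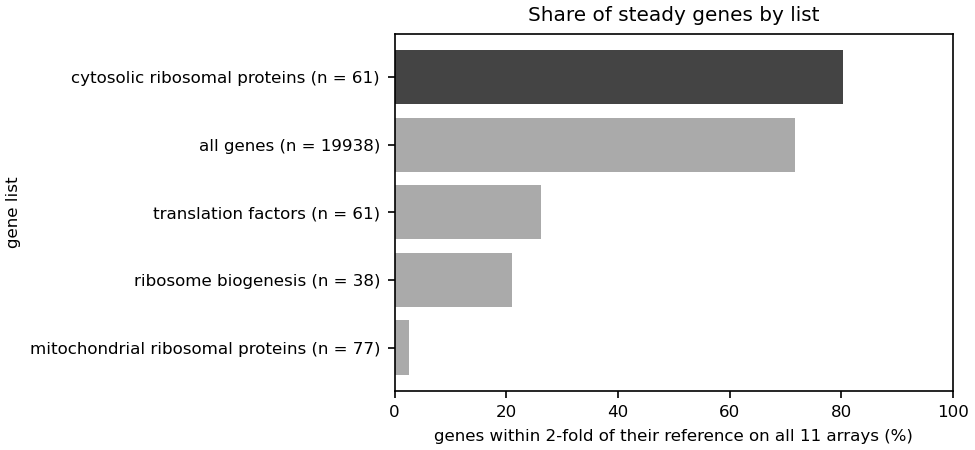
Percentage of measured genes of each list that stayed within 2-fold of their reference on all 11 arrays. Cytosolic ribosomal protein genes stand at 80.3% and mitochondrial ribosomal protein genes at 2.60%, with all genes at 71.8%.

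Among the biogenesis genes, Nop56, a core protein of box C/D small nucleolar particles, lay at 0.0213, 0.0271 and 1 on neuroepithelium, at 0.0217, 1.12, 0.021, 0.0617 and 1.32 on neural crest and at 1.05, 1.01 and 0.0225 on paraxial mesoderm. Low values thus occurred in each tissue and the groups overlapped. Ncl, the nucleolar protein nucleolin, was low on neuroepithelium array 2 at 0.015 and on neural crest array 4 at 0.0557, and lay between 0.623 and 1.30 elsewhere. Npm1, which shuttles ribosomal components between nucleolus and cytoplasm, stayed between 0.680 and 1.19, and Fbl, the methyltransferase fibrillarin, between 0.632 and 1.57. Of the 38 biogenesis genes, 19 were at least 4-fold high on some array and 10 at least 4-fold low on some array. Paraxial mesoderm array 1 held 17 of the high ones. It also had the largest share of all genes at least 4-fold high among the arrays, 8.11%. Fau, which encodes the small subunit protein Rps30 fused to a ubiquitin-like domain and lies outside the symbol rule, stayed between 0.932 and 1.04. Myc, a transcription factor that activates many ribosome genes, lay between 0.063 and 0.0836 on neuroepithelium, between 1.42 and 5.83 on neural crest, and at 1.57, 0.317 and 0.0636 on paraxial mesoderm. The crest and neuroepithelium groups of Myc did not overlap, but the gene did not pass the test in any comparison.

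In the small subunit, 19 of 23 genes (82.6%) stayed within 2-fold on all arrays. Rpsa, which also serves as a laminin receptor, ran from 0.896 to 1.23 with a median of 1.02. Rps3, a protein of the mRNA entry site with a separate role in DNA repair, had the range 0.947 to 1.15. For Rps6, the substrate of S6 kinase, the lowest ratio was 0.869 and the highest 1.29. Rps14, the gene deleted in the human 5q- syndrome, ran from 0.857 to 1.10. None of these genes had a tissue in which all arrays lay apart from those of both other tissues.

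In the large subunit, 30 of 38 genes (78.9%) stayed within 2-fold. All 3 P stalk genes, whose products recruit the translation factors with GTPase activity, stayed close to the reference: Rplp0 from 0.896 to 1.20, Rplp1 from 0.889 to 1.14 and Rplp2 from 0.871 to 1.05. Rpl10, which is needed for the last step of large subunit maturation, ran from 0.841 to 1.24. Rpl5 binds 5S RNA and restrains the ubiquitin ligase Mdm2, and ran from 0.696 to 1.10. Rpl29, whose loss makes mice small, ran from 0.803 to 1.11.

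The 6 genes whose mouse mutants change pigment, tail or body patterning all stayed within 2-fold, as did 80.3% of the 61 genes and 71.8% of all genes. Rps19, mutated in a mouse line with dark skin, had a lowest ratio of 0.838, a median of 1.09 and a highest of 1.16. Rps20, another dark skin gene, ran from 0.784 to 1.29. Rps7 ran from 0.712 to 1.08 by the probe used, while another of its probes left the 2-fold range, as described below. Rpl24, the gene of the Belly spot and tail mutant, ran from 0.701 to 1.09. Rpl27a had the range 0.775 to 1.13, and Rpl38, the gene of the Tail short mutant with its homeotic changes of the axial skeleton, the range 0.822 to 1.10. Of 9 human Diamond-Blackfan anaemia genes on the list, 4 were measured by a probe of their own, Rps7, Rps10, Rps19 and Rpl5. By the probes used all 4 stayed within 2-fold, to be set against the same 80.3% and 71.8%. Their median difference was -0.02 on the log2 scale for neural crest minus neuroepithelium and -0.01 for neural crest minus paraxial mesoderm.

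Of the 6 listed paralogs of a core protein, 5 were measured, and 3 stayed near the reference. Rpl3l, which takes the place of Rpl3 in heart and skeletal muscle, had the smallest range of all 61 genes, from 0.916 to 1.06, and Rpl39l, a testis paralog of Rpl39, ran from 0.913 to 1.08. Since the ratios hold no level, near-constant values of such tissue-restricted paralogs do not show that they were expressed. Rpl10l, the testis paralog of Rpl10, lay between 0.867 and 1.65. The remaining 2 paralogs, Rpl7l1 and Rps27l, left their reference by at least 4-fold on some array and are described next.

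Rpl7l1, a paralog of Rpl7 (probe 10451472), left its reference by at least 4-fold on 7 arrays, more than any other member. Its ratio was 34.9, 52.1 and 36.6 on the neuroepithelium arrays, 0.614, 44.4, 43.4, 0.752 and 54.7 on the neural crest arrays, and 35.3, 1 and 0.631 on the paraxial mesoderm arrays. All neuroepithelium arrays were high, while crest and mesoderm each held high arrays and arrays near 1, so every pair of groups overlapped. The log2 difference was -3.85 (SE 2.22) for paraxial mesoderm minus neuroepithelium, -2.23 (SE 1.99) for neural crest minus neuroepithelium and 1.62 (SE 1.99) for neural crest minus paraxial mesoderm, with an adjusted p of 1.00 in limma each time. The 4 arrays on which Rpl7l1 lay near 1 included the 3 with the smallest shares of genes at least 4-fold high, 2.06% on neural crest arrays 1 and 4 and 1.91% on paraxial mesoderm array 3. On the other 8 arrays that share ran from 2.91% to 8.11%, with 4.03% on paraxial mesoderm array 2. The part of this in the values of Rpl7l1 was not tested. Without neuroepithelium array 2 and neural crest arrays 3 and 5, the crest minus mesoderm difference was -0.04.

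**Figure D3:**
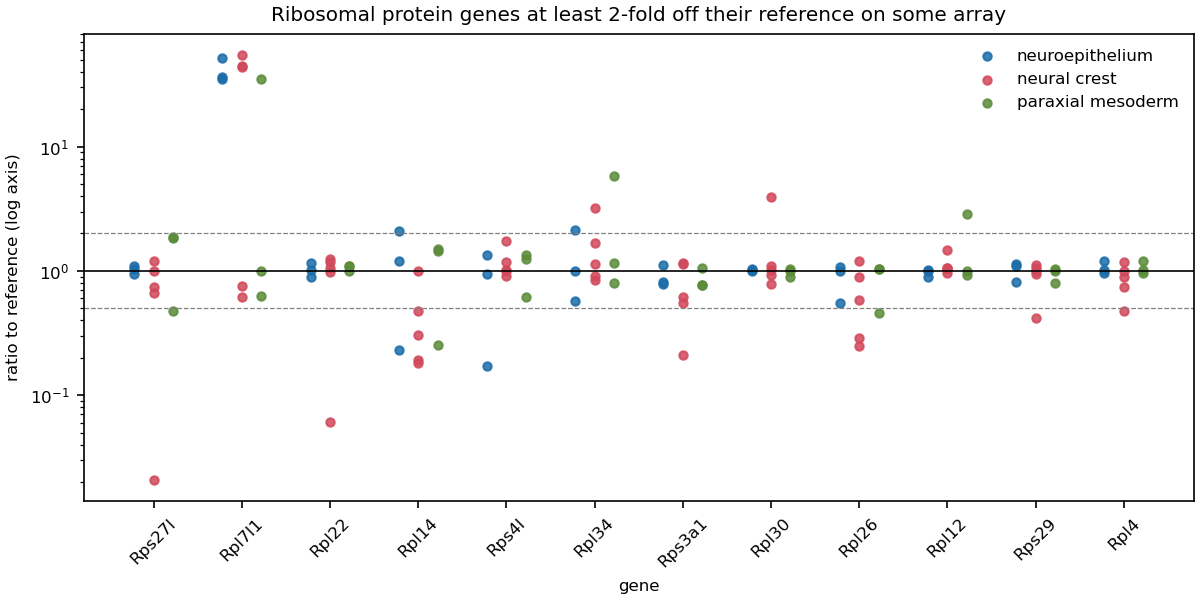
Ratio to the reference (log axis) of the 12 ribosomal protein genes that left their reference by at least 2-fold, 1 point per array, coloured by tissue. Rpl7l1 falls into values near 1 and values from 34.9 to 54.7, and the lowest points of Rps27l and Rpl22, 0.0208 and 0.0605, are both from neural crest array 1.

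Rpl14, a large subunit protein (probe 10590320), was the member most often low. Its ratio was 1.20, 0.229 and 2.10 on neuroepithelium, 0.304, 1, 0.192, 0.180 and 0.471 on neural crest, and 1.46, 1.49 and 0.253 on paraxial mesoderm. Each tissue held at least 1 array below 0.3, and the groups overlapped. The crest minus neuroepithelium difference was -1.27 (SE 0.92; adjusted p 1.00, limma). It ran from -2.20 without neuroepithelium array 2 to -0.60 without neuroepithelium array 3.

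Several members had 1 extreme array. Rps27l, a paralog of Rps27 induced by p53 in human and mouse cells, read 1.04, 1.10 and 0.949 on neuroepithelium, 0.0208, 1, 0.668, 1.19 and 0.742 on neural crest, and 1.84, 1.87 and 0.476 on paraxial mesoderm. Rpl22, whose loss in the mouse impairs T cell development, read 0.898, 1.02 and 1.15 on neuroepithelium, 0.0605, 0.978, 1.18, 1.05 and 1.25 on neural crest, and 1.10, 1.10 and 1 on paraxial mesoderm. For both genes the lowest value came from neural crest array 1, the array with the largest share of genes at least 4-fold low, 2.52% against 0.336% to 2.27% elsewhere. Without that array the crest minus mesoderm difference of Rpl22 was 0.06, against -0.78 (SE 0.93) with it, and that of Rps27l was -0.43, against -1.51 (SE 1.26) with it. Rps29, a small subunit protein that binds zinc, was also low there alone, at 0.421, and its 4 off probes gave 0.421 to 0.437 on that array. Probes that pair Rpl39 with Gm32211 read 0.01, the lowest ratio in the table, on the same array, and probes that pair Rps27 with Rps27rt read 0.454 and 0.475.

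On the other side, Rpl34, a large subunit protein, read 0.571, 2.14 and 1 on neuroepithelium, 0.903, 1.68, 0.837, 1.14 and 3.21 on neural crest, and 5.81, 0.795 and 1.17 on paraxial mesoderm. Its highest value came from paraxial mesoderm array 1, the array with the red cell markers. That array also had the largest share of all genes at least 4-fold high, 8.11%. Without that array the mesoderm minus neuroepithelium difference of Rpl34 went from 0.71 (SE 0.83) to -0.15. Rpl12, a protein of the stalk base, reached 2.88 on the same array and 1.47 on neural crest array 2, and lay between 0.895 and 1.06 on the other 9. The probe shared by Rpl12 and the small nucleolar RNA gene Snora65 read 37.4 and 9.53 on those same arrays. The mesoderm minus neuroepithelium difference of Rpl12 was 0.52 (SE 0.38) with paraxial mesoderm array 1 and -0.003 without it. The shared probe of Rps13 and Snord14a was also high on paraxial mesoderm array 1, at 7.19, while Rps13 by its own probe stayed between 0.888 and 1.16. In contrast, the shared probe of Rpl13a and Snord34 was high on neuroepithelium array 3, at 21.5, and read 1.02 on paraxial mesoderm array 1. Whether the red cells or the small nucleolar RNAs have a part in these values was not tested.

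Rpl30, a large subunit protein, read 3.95 on neural crest array 2 and between 0.779 and 1.09 on the other 10 arrays. The 3 probes that pair Rpl30 with Gm12191 and Gm5481 did not show the high value, with 0.656, 0.822 and 0.808 on neural crest array 2, and read 0.474 to 0.497 on neural crest array 1. Without neural crest array 2 the crest minus mesoderm difference of Rpl30 by its own probe went from 0.37 (SE 0.46) to -0.04. Rps4l read 0.170 on neuroepithelium array 1 and from 0.614 to 1.74 elsewhere, and its other probe read 0.0399 on that array. Its crest minus neuroepithelium difference was 0.92 (SE 0.62), and 0.01 without that array.

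Probes of the same gene were compared with each other. The 61 genes had 217 single-symbol probes, up to 14 per gene (Rps12), of which 199 stayed within 2-fold on all arrays. Of the 39 genes with several probes, 35 had all of them within 2-fold. The exceptions were Rps29 and Rps4l, above, together with Rpl23 and Rps7. The other probe of Rpl23 read 0.0499 and 0.072 on neural crest arrays 1 and 4. Of the 3 probes of Rps7, 1 that was not used read 0.455 on neural crest array 3. A further 237 probes paired a gene of the family with another symbol, and 226 of them stayed within 2-fold. Ribosomal protein genes have many processed copies in the mouse genome, so probes of a family member can share sequence with such copies, and the values of single probes are uncertain to that extent.

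The comparison of neural crest with neuroepithelium asks what differs between the migratory cells and the epithelium they leave. No ribosomal protein gene passed in limma at an adjusted p of 0.05, against 6 of all genes (0.0301%), and the adjusted p was 1.00 throughout. At an unadjusted p of 0.05 the count was 1, Rps28, against 2.79% of all genes. Rps28, a small subunit protein near the mRNA exit, read 1.09, 1.12 and 1.22 on neuroepithelium and 0.880, 0.700, 0.664, 0.952 and 1.09 on neural crest, a log2 difference of -0.44 (SE 0.16, unadjusted p 0.0208). No member had crest arrays all above or all below the neuroepithelium arrays, against 1.45% and 1.53% of all genes. The difference was negative for 46 of the 61 genes and positive for 15, against 50.2% of all genes positive. The median difference over the 61 genes was -0.06, while the median over all genes was 0.00. Without neural crest array 3 the median was -0.02. Differences of 54 of the 61 genes lay within 0.5 on the log2 scale.

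Neural crest was also set against paraxial mesoderm, with which it mixes in the head. No member passed at an adjusted p of 0.05 in limma (2 of all genes, 0.01%), and none at an unadjusted p of 0.05 (2.89% of all genes). No member had crest arrays all above or all below the mesoderm arrays, against 1.46% and 1.2% of all genes. The median difference over members was -0.08, against 0.002 over all genes, and -0.05 without neural crest array 3. The difference was negative for 45 of the 61 and positive for 16, against 51.2% of all genes positive. Both crest comparisons use the same crest arrays.

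For paraxial mesoderm against neuroepithelium no member passed in limma (3 of all genes, 0.015%), and 2 had an unadjusted p below 0.05, Rps15 and Rpl10l (2.48% of all genes). Mesoderm arrays were all above the neuroepithelium arrays for 2 members, against 2.82% of all genes, and all below them for 3, against 4.02%. Rps15, a protein of the small subunit head, read 0.910, 0.955 and 0.945 on neuroepithelium and 1.05, 1 and 1.08 on mesoderm, a log2 difference of 0.15. Of its other 2 probes, 1 read 0.951 on paraxial mesoderm array 1, so that the groups overlapped. Rps15a read 0.933, 0.951 and 0.847 against 0.973, 1.08 and 1.30, a difference of 0.29. On the lower side Rpl10l read 1.06, 1.65 and 1.10 on neuroepithelium and 0.868, 0.930 and 1 on mesoderm, a difference of -0.42, and -0.21 without neuroepithelium array 2. Rpl36a, a large subunit protein near the tRNA exit site, read 1.05, 1.19 and 1.17 against 0.916, 0.915 and 1, a difference of -0.27. Rps28 read 1.09, 1.12 and 1.22 against 1, 0.968 and 1.08, a difference of -0.17. These 5 differences are small and each had an adjusted p of 1.00. The median over members was -0.01, against -0.003 over all genes. The difference was negative for 32 of the 61 and positive for 29, against 48.6% of all genes positive.

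**Figure D4:**
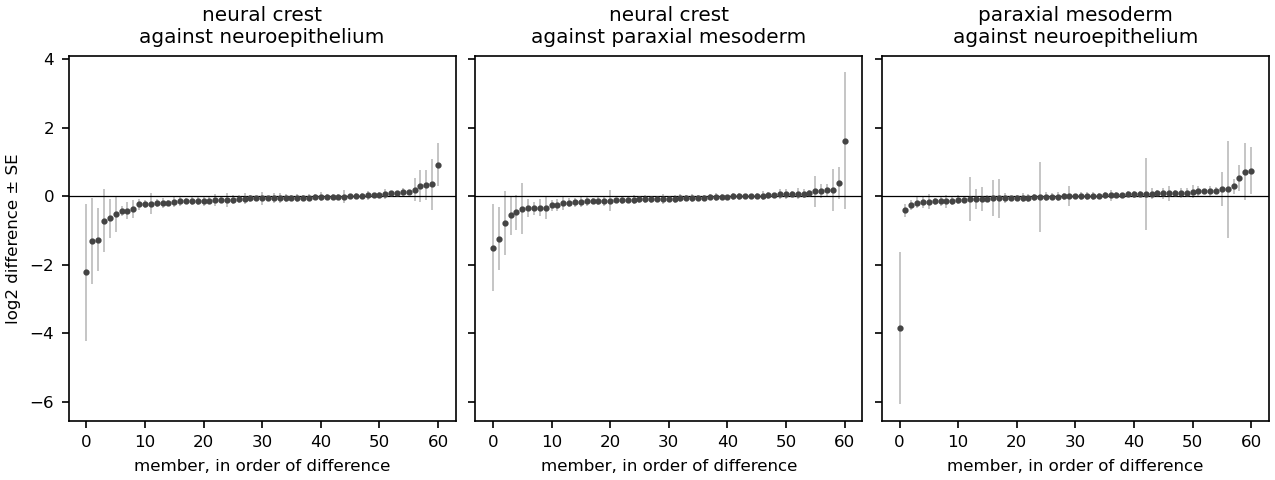
Log2 difference between group means for each of the 61 ribosomal protein genes in the 3 comparisons (points, with bars of ± SE from limma), ordered from lowest to highest within each panel. The median differences are -0.06 for neural crest minus neuroepithelium, -0.08 for neural crest minus paraxial mesoderm and -0.01 for paraxial mesoderm minus neuroepithelium, and Rpl7l1 lies farthest from 0 at -3.85.

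A test for any difference among the 3 tissues (moderated F test of the same limma fit) passed 0 of the 61 genes, against 6 of all genes (0.0301%). It also gave 0 members at an unadjusted p of 0.05, against 2.57% of all genes, and the smallest adjusted p of a member was 0.999 (Rps28). The remaining named genes gave differences of -0.53 (SE 0.51) for Rps3a1 and -0.65 (SE 0.58) for Rpl26 between neural crest and neuroepithelium. Rps3a1, a small subunit protein, was lowest on neural crest array 3, at 0.209, and Rpl26, which in human cells promotes translation of p53, was low on neural crest arrays 2 and 3, at 0.287 and 0.247. Without neural crest array 3 these differences were -0.14 for Rps3a1 and -0.37 for Rpl26.

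The family as a whole differed between arrays of the same tissue. The median ratio over the 61 genes was 1, 0.990 and 1.06 on the neuroepithelium arrays, 0.952, 0.962, 0.876, 1 and 1.09 on the neural crest arrays, and 1.03, 1.02 and 0.989 on the paraxial mesoderm arrays. The group means of these medians were 1.02 ± 0.036 (SD, n = 3), 0.975 ± 0.076 (SD, n = 5) and 1.01 ± 0.021 (SD, n = 3), so the crest arrays held both the lowest and the highest and spanned the other tissues. The lowest and the highest came from neural crest arrays 3 and 5, which held only 4 genes and 1 gene at exactly 1. Neuroepithelium array 2, with 2 such genes, had a median of 0.990. The part of this in the medians was not tested. The median over all genes stayed between 0.995 and 1.00 on every array. On neural crest array 3, 49 of the 61 genes (80.3%) were below 1, against 55.5% of all genes, and for 27 of the 61 it was the lowest of the 11 arrays (44.3%, against 7.51% of all genes). Neural crest array 5 had 52 of the 61 above 1 and 14.8% of them below 1, against 49.2% of all genes below 1. That array was the highest for 14 members (23.0%, against 10.5% of all genes).

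**Figure D5:**
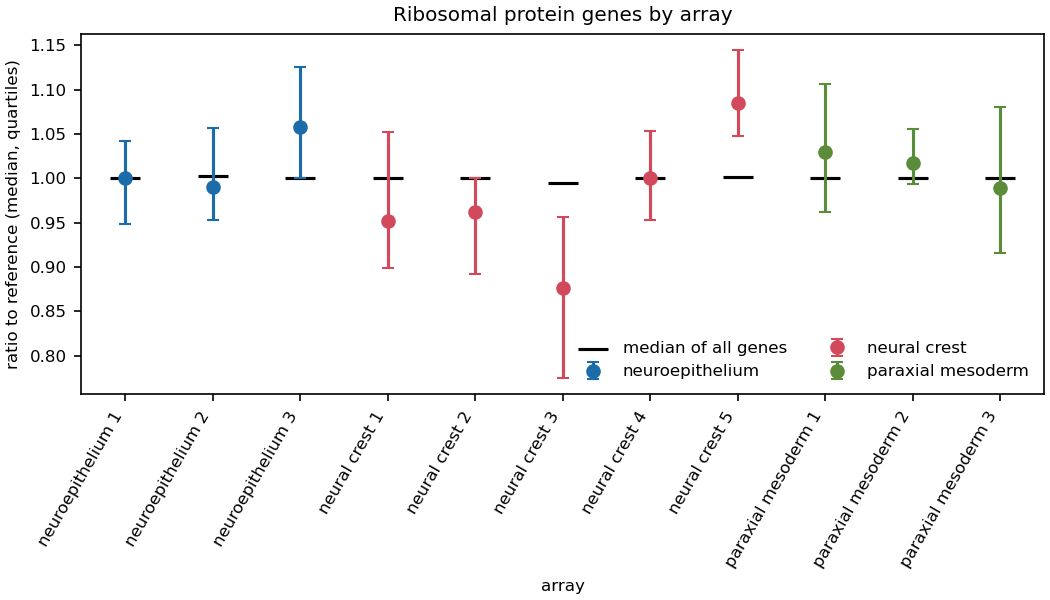
Median ratio over the 61 ribosomal protein genes on each array, with bars from the lower to the upper quartile of the genes and the median over all genes beside it. Neural crest array 3 is lowest at 0.876 and neural crest array 5 highest at 1.09.

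Neural crest arrays 2 and 3 were both below all other 9 arrays for 12 members (19.7%, against 1.61% of all genes): Rpl4, Rpl6, Rpl8, Rpl10a, Rpl23, Rpl26, Rps6, Rps14, Rps15a, Rps20, Rps25 and Rps28. This pair of arrays was singled out after the values were seen. Rpl8, a protein near the peptidyl transferase centre, read 1.07, 1.06 and 1 on neuroepithelium, 0.922, 0.527, 0.541, 1.03 and 1.05 on neural crest, and 0.948, 1.09 and 0.914 on paraxial mesoderm. Apart from arrays 2 and 3, all its values were above 0.9. Rpl4, a protein that lines the exit tunnel, was lowest on neural crest array 3 at 0.476 and next on array 2 at 0.740. Rps2, a protein of the mRNA entry site, took a different course, with 0.809, 1.72 and 0.652 on neuroepithelium, 1.05, 0.666, 1.70, 1.15 and 1.93 on neural crest, and 0.790, 1 and 1.72 on paraxial mesoderm. Its 4 high values came from all 3 tissues, and it was the highest member on paraxial mesoderm array 3 and the lowest on neuroepithelium array 3. This course rested on a single probe. The other 2 probes of Rps2 read 1.00 and 0.972 on neuroepithelium array 2, 0.970 and 0.655 on neural crest array 3, 1.10 and 1.14 on crest array 5, and 0.984 and 0.998 on paraxial mesoderm array 3.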

How the data were processed

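RNA from laser-captured tissue was amplified (NuGEN Ovation Pico) and hybridised to 11 arrays, per the labels' protocols. RMA and the build mm9 are named with no version or role, per the submitters' processing notes. What the authors deposited is a linear ratio to a reference of each probe, as the values show, and its making is not stated in the labels or headers. They hold no intensity, so signal over background is unknown and the number of arrays limits the precision. The table listed 35557 probes, 28856 with values, of which 21789 had 1 gene symbol. Entrez identifiers matched 21698 to RefSeq (GRCm38.p6), which changed 0 symbols. With the highest-mean probe per gene, 19938 genes remained. Log2 was taken without a pseudocount or filter. The 3 group means were fitted over all genes with limma 3.58.1 in R 4.3.3 (eBayes without trend), and two-sided p-values were corrected over all genes (Benjamini-Hochberg) and read at 0.05. The fit was also run on simulated data with normal noise and shifts in genes of small spread. That run did not cover shifts in genes that vary as much as Rpl7l1.

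The ribosomal protein genes, the gene lists and the rules below were chosen with earlier results of these data known. Named genes were those that passed a test, up to 5 a side whose groups did not overlap, the 10 most often 4-fold off, listed genes with separate roles, and the highest and lowest member of each array. Rps29, Rpl4, Rpl8, Rps13, Rpl23, the arrays' low genes and the examples from the other lists fall outside this rule and were named after their values were seen. Promoter sequences are those of RefSeq. Replicate numbers did not pair the samples: over 9 pairs of arrays with the same number the correlation of deviations ran from -0.153 to 0.0505. Alternatives were other variance models, probe choices, pseudocount, scaling, array weights, a replicate block and each array left out.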

Additional observations from a re-analysis of the deposited data

Results flagged for a closer look

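Values of the named genes and the medians over the family were screened within neural crest, the only group with more than 3 arrays, by the gap of the extreme array to its nearest neighbour relative to the range of the group. Of 18 quantities, 4 stood apart by Dixon's critical value. Many of these genes were named because of an extreme array, so this count has no chance rate to be set against and is a description. Rps27l on neural crest array 1 had a ratio of 0.0208, against 0.668 to 1.19 on the other crest arrays. Rpl22 on the same array had a ratio of 0.0605, against 0.978 to 1.25. Rpl30 on neural crest array 2 had a ratio of 3.95, against 0.779 to 1.09. Rpl12 on neural crest array 2 had a ratio of 1.47, against 0.965 to 1.06.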

How the results depend on the processing

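No ribosomal protein gene passed in any comparison under any of the 23 alternatives, while the number of all genes that passed ran from 2 to 19 for neural crest against neuroepithelium, from 0 to 43 for neural crest against paraxial mesoderm and from 2 to 39 for paraxial mesoderm against neuroepithelium. The highest counts of the last 2 came without paraxial mesoderm array 3, that of the first without neuroepithelium array 2, and the lowest of the first 2 with an intensity trend. With the replicate block 0 members passed, and their median differences were -0.14, -0.12 and -0.01 in the same order. The replicate numbers did not pair the samples. With the genes within 2-fold on all arrays left out, which keeps 12 members, the medians were -0.45 and -0.36 in the crest comparisons. With arrays left out in turn they ran from -0.11 to -0.02 and from -0.12 to -0.05. Under quantile normalization 19 members were at least 2-fold off, against 12 without it. The share of members within 2-fold given above thus depends on the scaling, and the share of all genes under this setting was not counted. The mesoderm minus neuroepithelium difference of Rpl34 under quantile normalization was -0.015. Left-out arrays turned 4 differences: Rpl34 ran from -0.15 to 1.28 and Rpl12 from -0.0029 to 0.81 for mesoderm minus neuroepithelium, and Rpl22 from -1.03 to 0.060 and Rpl30 from -0.041 to 0.54 for crest minus mesoderm. Without neuroepithelium array 2 and neural crest arrays 3 and 5, an alternative added after seeing the data, the crest minus mesoderm difference of Rpl7l1 was -0.040. Apart from the left-out arrays themselves, the cause of these changes was not tested. The other named differences kept their direction.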
